A study of Mus musculus with 6 samples.

Results

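The genes described here encode subunits of the transcription factor NF-kB (Rel, Rela, Relb, Nfkb1 and Nfkb2), its feedback inhibitors and regulators (Nfkbia, Nfkbie, Tnfaip3 and Bcl3) and the activation marker Cd69. These 10 genes were chosen by symbol, with earlier results of these data known. Of them, 9 were measured by 1 probe set each, of 19938 genes measured in all. Nfkb1 was not analysed here. The probe sets were 10384725 (Rel), 10460631 (Rela), 10560575 (Relb), 10463599 (Nfkb2), 10400405 (Nfkbia), 10445412 (Nfkbie), 10368144 (Tnfaip3), 10560685 (Bcl3) and 10548333 (Cd69). The arrays hold RNA of B lineage cells from mice of the strain RAG2-GFP/129Sve, at post-natal day 17 to 25, kept without further treatment in a regular SPF facility. Both groups carry the same reporter, in which green fluorescent protein marks cells that use or recently used Rag2, a gene of antigen receptor assembly. One group was sorted as fluorescent cells from small intestinal lamina propria, a layer of connective tissue beneath the epithelium, and the other from the bone marrow. Each group has 3 independent pools, with 8 to 12 mice behind each experiment, and each pool was hybridised to 1 array. The labels name no gate besides the reporter, so a pool may hold more than 1 cell type, and the values are averages over pooled animals. The study asked how the expression profiles of the tissues differ.

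NF-kB is a family of paired DNA-binding proteins that drive genes of inflammation, activation and survival. In resting cells the pairs are held in the cytoplasm by IkB proteins, and a kinase complex (IKK) releases them by marking the IkB protein for destruction. Several of the genes switched on encode the inhibitors themselves, such as IkB alpha (Nfkbia) and the ubiquitin-editing enzyme A20 (Tnfaip3), which end the response. In B cells c-Rel (Rel) serves proliferation and survival after stimulation, and the pair of Relb and Nfkb2 serves survival through the receptor for BAFF.

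Several of these genes carry matches to the NF-kB binding motif near their starts, and these stretches are printed to show them. Windows of 250 bases before to 50 bases after a gene start were taken from RefSeq (GRCm38.p6), where 7 of the 10 genes matched by symbol. The kappaB consensus, a site of 10 bases with G at one end and C at the other, was searched on both strands, and overlapping matches were merged. A match was found for 6 of the 7 genes (all but Rela), against 8.46% of all 32851 windows and 9.55% of the 27025 genes with a window. Of the wider lists used below, 6 of 12 inhibitors and brakes, 3 of 18 IKK genes and adaptors, 2 of 12 receptors and ligands, 8 of 19 target genes and 6 of 12 immediate early and stress genes had a match. Among the 15614 measured genes with a window the share was 11.0%. A match describes these letters and shows no binding. Capitals mark the matched bases, and every sequence reads 5′ to 3′ on the strand of the gene. In Rel the match overlaps on both strands, and the 250 bases before its start lie at chr11:23770970-23771219 on the minus strand.
Rel, before its start: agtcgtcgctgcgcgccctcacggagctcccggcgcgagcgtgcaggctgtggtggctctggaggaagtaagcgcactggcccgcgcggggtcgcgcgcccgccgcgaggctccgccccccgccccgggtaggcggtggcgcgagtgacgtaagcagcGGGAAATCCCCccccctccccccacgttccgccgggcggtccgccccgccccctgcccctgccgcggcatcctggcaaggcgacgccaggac
For the inhibitors and for Nfkb2 the site is shown with 10 bases on each side. The Nfkbia site lies at chr12:55492657-55492686 (minus strand), 29 bases before the start. The Tnfaip3 sites lie at chr10:19015516-19015545 and chr10:19015403-19015432 (minus strand), 125 and 12 bases before. The Nfkbie site lies at chr17:45555584-45555613 (plus strand), 106 bases before. The Bcl3 site lies at chr7:19822734-19822763 (minus strand), 3 bases after the start. The first Nfkb2 site lies at chr19:46304688-46304718 (plus strand), 39 bases before the first of its starts, and Nfkb2 had 3 further sites that are not printed.
Nfkbia: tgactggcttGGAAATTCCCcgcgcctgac
Tnfaip3, first site: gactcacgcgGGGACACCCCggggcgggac
Tnfaip3, other site: aatttccatcGGAAATCCCCctgttggcaa
Nfkbie: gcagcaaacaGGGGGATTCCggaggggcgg
Bcl3: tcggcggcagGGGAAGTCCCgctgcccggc
Nfkb2: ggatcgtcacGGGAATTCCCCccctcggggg

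The deposited values are RMA values on the log2 scale, so a difference of 1 is a doubling, and having 3 arrays per tissue limits how precisely differences are known. Lamina propria pools 1 and 2 stood apart from the other 4 arrays. Across genes their correlation with those 4 arrays was 0.766 to 0.832, and that of pool 3 with the marrow arrays was 0.954 to 0.966; genes are not independent replicates. In pools 1 and 2, bright genes read lower and dim genes higher. Genes with a marrow mean of 7 to 8 had a median 1.02 and 1.07 below the marrow mean, those at 8 to 9 a median 1.38 and 1.55 below, and those at 9 to 10 a median 1.03 and 1.10 below. Genes at 5 to 6 had a median of 0.44 and 0.40 above it. In pool 3 the medians of these bands ran from -0.05 to 0.00. Of 11 measured B lineage markers 2 had a positive difference, and the median was -0.22, with a range from -2.35 (Rag2) to 0.43. The groups did not overlap for 1 higher and 2 lower markers. Of those picked to be named, Ebf1, a factor that sets B cell identity, averaged 10.52 and 10.74 in lamina propria and marrow, and Blnk, an adaptor of the B cell receptor, 9.71 and 9.95. Rag2, the gene of the reporter, read 5.67, 5.75 and 6.06 in the lamina propria and 7.76, 8.49 and 8.28 in the marrow. Rag1, its partner in antigen receptor assembly, read 9.75, 9.68 and 10.47 against 10.92, 10.99 and 11.15, a difference of -1.05.

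Most of the measured NF-kB genes lay higher in the lamina propria, but none passed the test over all genes. Of 9 genes, 8 had a positive difference and 1, Rela, a negative one, where 67.6% of all genes were positive. The median difference was 0.49, against 0.22 over all genes. By limma with Benjamini-Hochberg adjustment, 0 of the 9 passed an adjusted p of 0.05, as did 0% of all genes in either direction. Rel and Cd69, 2 of the 9, were higher at an unadjusted p under 0.05 and 0 were lower, where the shares over all genes were 5.53% and 8.15%. The 3 lamina propria pools lay above the 3 marrow pools for 4 of the 9 (Rel, Relb, Nfkbie and Bcl3), against 14.8% of all genes, and below them for 0, against 7.27%. In either direction, where the share over all genes was 22.1%, that count was 7 without bone marrow pool 2, against 28.8% of all genes, and 7 after quantile normalization, against 23.2%. It was 6 without lamina propria pool 3 (66.7%, Rela then being lower), near the 69.9% of all genes. Several gaps were narrow. In bulk RNA, more cells of a type and more RNA per cell cannot be told apart. Nothing in the labels says that the pools of the tissues came from the same animals.

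**Figure D1:**
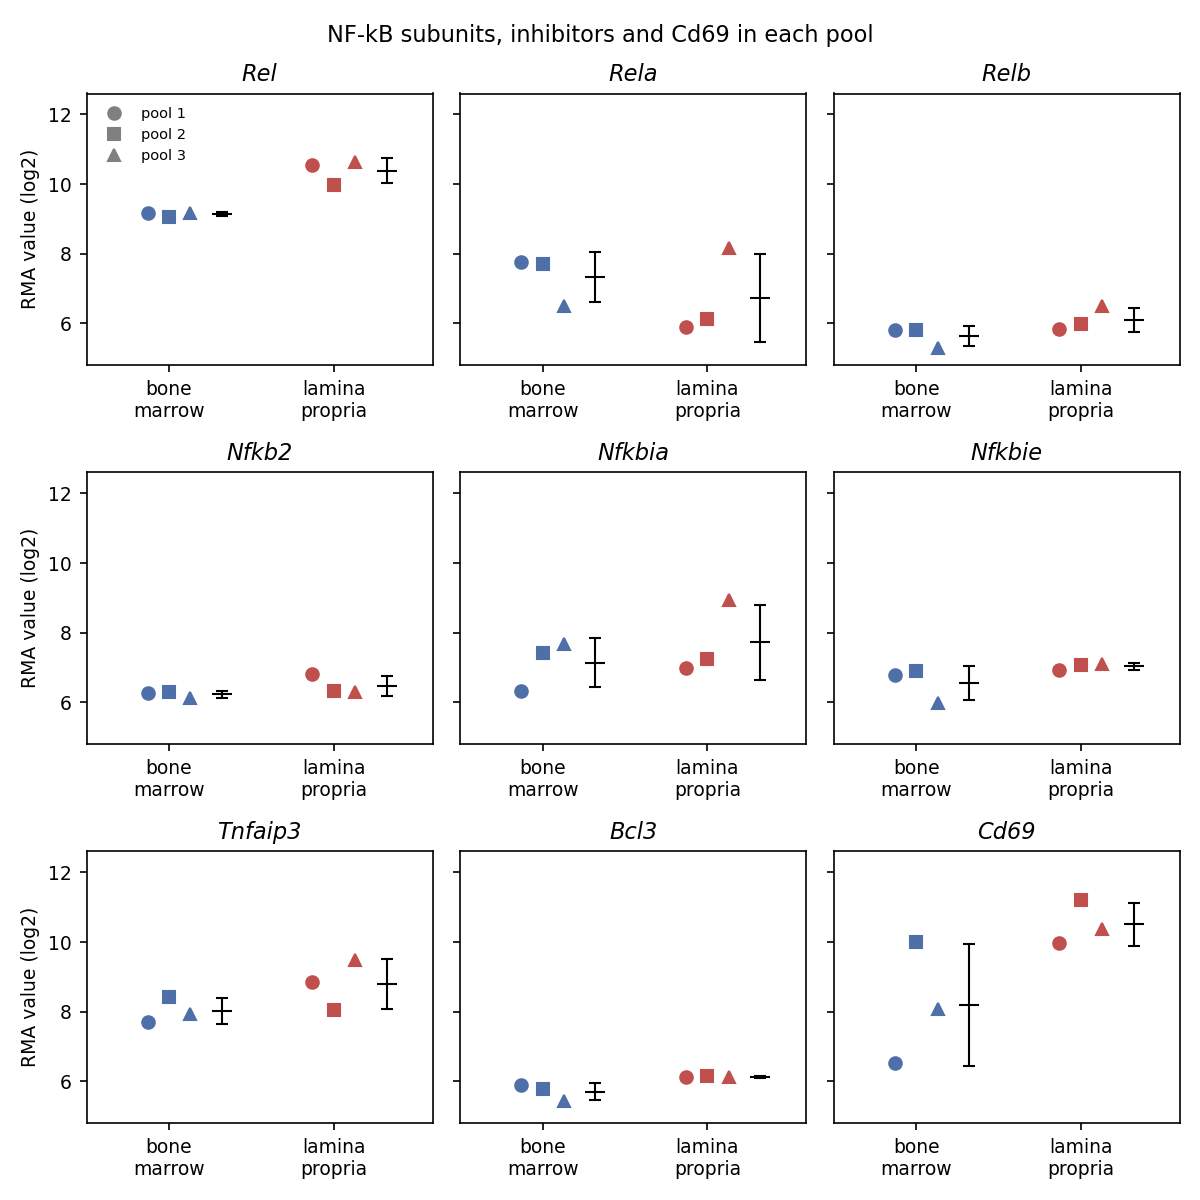
RMA values (log2) of the 9 measured genes in each pool, 1 panel per gene with the same vertical axis; circles, squares and triangles are pools 1, 2 and 3, and bars give the mean and SD of 3 pools. Rel is separated by a gap of 0.82, and 6 of the 9 genes (Rel, Rela, Relb, Nfkbia, Nfkbie and Tnfaip3) are highest of all 6 arrays in lamina propria pool 3.

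Rel, which encodes c-Rel, had the smallest limma p of the 9 genes before adjustment (0.000905). It read 10.54, 9.98 and 10.64 in lamina propria pools 1 to 3 and 9.17, 9.06 and 9.16 in the marrow pools. All 3 lamina propria pools were high and the groups were separated by 0.82. The means were 10.39 ± 0.35 and 9.13 ± 0.06 (SD, n = 3 each). They differed by 1.26 (95% interval 0.71 to 1.81), or 2.39-fold. The limma adjusted p was 0.226. It was 0.0167 with estimated array weights, where 16.9% of all genes were called higher, and 0.0208 without lamina propria pool 3, where 24.1% were. Array weights gave lamina propria pool 3 a weight of 0.153, against 1.16 and 0.705 for pools 1 and 2. On the lamina propria side both settings thus rest mainly on pools 1 and 2. The limma adjusted p ran from 0.0167 to 0.609 over the alternatives that kept at least 2 lamina propria pools. The difference itself stayed between 1.13 and 1.51 in 14 alternatives, pool 3 alone among them, and was 0.85 in lamina propria pool 2 alone. Genes of the marrow band that holds Rel (9 to 10) had a median 1.03 and 1.10 below the marrow mean in pools 1 and 2. Rel lay 2.44, 1.95 and 1.51 above the median of those 426 genes in pools 1, 2 and 3. The part of the shift of pools 1 and 2 in the difference of Rel was not tested.

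Rela encodes p65, the transactivating partner of the classical pair, and did not share the pattern of Rel. It read 5.90, 6.12 and 8.18 in the lamina propria and 7.76, 7.72 and 6.50 in the marrow. Pools 1 and 2 were the lowest of all 6 arrays and pool 3 the highest, so the groups overlapped. The difference was -0.59 (95% interval -2.09 to 0.90, limma adjusted p = 0.538). Its sign rested on pools 1 and 2, as it was 0.85 without them. In those pools Rela lay 0.40 and 0.14 below the median of the 1953 genes at its marrow level, and in pool 3 it lay 0.90 above. The value of Rel less that of Rela within an array was 4.64, 3.87 and 2.47 in the lamina propria and 1.41, 1.35 and 2.66 in the marrow. The contrast of these values was 1.85 (exact permutation test, two-sided p = 0.2; 3 against 3 cannot give less than 0.1), with lamina propria pool 3 inside the marrow range.

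Relb and Nfkb2 encode the partners of the alternative NF-kB pathway, and neither passed the test. Relb read 5.85, 5.97 and 6.49 in the lamina propria and 5.80, 5.82 and 5.30 in the marrow. The groups did not overlap, but the gap was only 0.03. The difference was 0.46 (95% interval -0.15 to 1.08, limma adjusted p = 0.363). It was 0.27 without lamina propria pool 3, and pool 3 alone lay 0.85 above the marrow mean. In pools 1 and 2 Relb lay 0.23 and 0.08 below the median of the 5419 genes at its marrow level, and in pool 3 it lay 0.87 above. Nfkb2, the precursor of p52, read 6.80, 6.32 and 6.31 in the lamina propria and 6.28, 6.31 and 6.13 in the marrow. Lamina propria pool 1 was high and the other 2 pools sat at the top of the marrow values. The difference was 0.24 (95% interval -0.27 to 0.75, limma adjusted p = 0.483), and pool 3 alone lay 0.07 above the marrow mean.

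Among the inhibitors, Nfkbia, Nfkbie and Tnfaip3 read highest in lamina propria pool 3. Nfkbia, the inhibitor that is destroyed and remade in each round of NF-kB activity, read 6.97, 7.24 and 8.95 in the lamina propria and 6.34, 7.42 and 7.67 in the marrow. Pools 1 and 2 fell inside the marrow range and pool 3 lay above every other array. The difference was 0.58 (95% interval -0.76 to 1.92, limma adjusted p = 0.509). Without pool 3 it was -0.03, and pool 3 alone lay 1.81 above the marrow mean, or 3.50-fold. Relative to the median of genes at its marrow level, Nfkbia was above in each pool, by 0.86, 1.17 and 1.86.

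Tnfaip3, the enzyme A20 that trims ubiquitin chains upstream of IKK, read 8.85, 8.06 and 9.49 in the lamina propria and 7.70, 8.42 and 7.94 in the marrow. Pools 1 and 3 lay above every marrow pool, while pool 2 lay below marrow pool 2. The difference was 0.78 (95% interval -0.12 to 1.69, limma adjusted p = 0.356), or 1.72-fold, and pool 3 alone stood 1.47 above the marrow mean. Relative to the median of the 1030 genes at its marrow level it was 2.20, 1.59 and 1.52 higher in pools 1, 2 and 3.

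Nfkbie and Bcl3 varied little between the lamina propria pools. Nfkbie encodes IkB epsilon, an inhibitor that acts on c-Rel and p65, and read 6.93, 7.08 and 7.11 in the lamina propria and 6.77, 6.89 and 5.996 in the marrow. Marrow pool 3 was the low array, and marrow pool 2 came within 0.04 of the lowest lamina propria pool. The difference was 0.49 (95% interval -0.16 to 1.13, limma adjusted p = 0.364), and 0.21 without marrow pool 3. Bcl3 encodes a nuclear IkB protein that binds p50 and p52 on DNA. It read 6.12, 6.17 and 6.12 in the lamina propria and 5.89, 5.79 and 5.42 in the marrow, with no overlap and a gap of 0.23. The difference was 0.44 (95% interval -0.05 to 0.92, limma adjusted p = 0.356). In pools 1 and 2 it lay at -0.02 and 0.06 from the median of genes at its marrow level, and in pool 3 at 0.44.

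**Figure D2:**
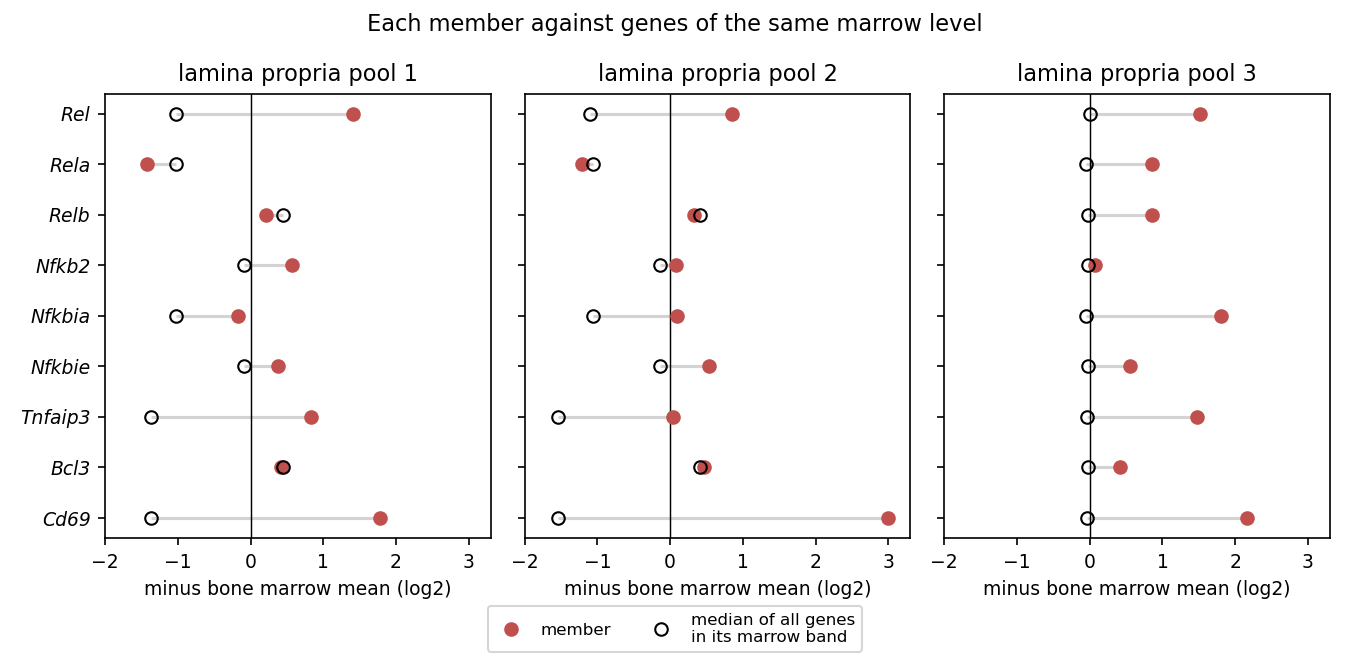
Each measured gene in each lamina propria pool less its marrow mean (filled, log2), beside the median over all genes in the same 1-unit band of marrow mean (open). In pools 1 and 2 the open circles spread from 0.44 down to -1.55, and in pool 3 they lie near 0; Rel, Nfkb2, Nfkbia, Nfkbie, Tnfaip3 and Cd69 lie to the right of them in all 3 pools.

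Set against genes of the same marrow level, 6 of the 9 genes lay above the band median in pool 1, 7 in pool 2 and 9 in pool 3. By definition as many genes of a band lie above its median as below it. The 6 of the 9 above it in every pool were Rel, Nfkb2, Nfkbia, Nfkbie, Tnfaip3 and Cd69. The share of all genes above it in every pool was not computed. Against the marrow pools themselves, 6 of 9 genes in pool 1 and 6 of 9 in pool 2 exceeded all 3 marrow arrays, where the shares over all genes were 59.7% and 58.4%. In pool 3 it was 8 of 9 against 24.8%, the exception being Nfkb2. The share in pools 1 and 2 is thus near that of all genes, and the share in pool 3 is not. Those shares are over genes of all levels, while in pools 1 and 2 dim genes read higher and bright genes lower. The share among genes of the same marrow levels was not computed.

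Cd69, a lectin-like surface protein that appears within hours of lymphocyte stimulation and pulls the egress receptor S1pr1 from the surface, had the largest difference of the 9 genes and the largest spread. It read 9.98, 11.20 and 10.36 in the lamina propria and 6.52, 10.01 and 8.08 in the marrow. The marrow pools spanned 3.50 log2 units, and marrow pool 2 reached 0.04 above lamina propria pool 1, which is the whole overlap. The means were 10.51 ± 0.62 and 8.20 ± 1.75 (SD, n = 3 each). The difference was 2.31 (95% interval 0.41 to 4.21, limma adjusted p = 0.356), or 4.95-fold. It was 1.47 without marrow pool 1, 3.21 without marrow pool 2 and 2.16 in lamina propria pool 3 alone. Over the alternatives that kept at least 2 lamina propria pools the limma adjusted p ran from 0.0685 to 0.645. S1pr1 read 6.53, 6.81 and 8.11 in the lamina propria and 6.46, 6.91 and 6.73 in the marrow, so only pool 3 exceeded the marrow range.

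**Figure D3:**
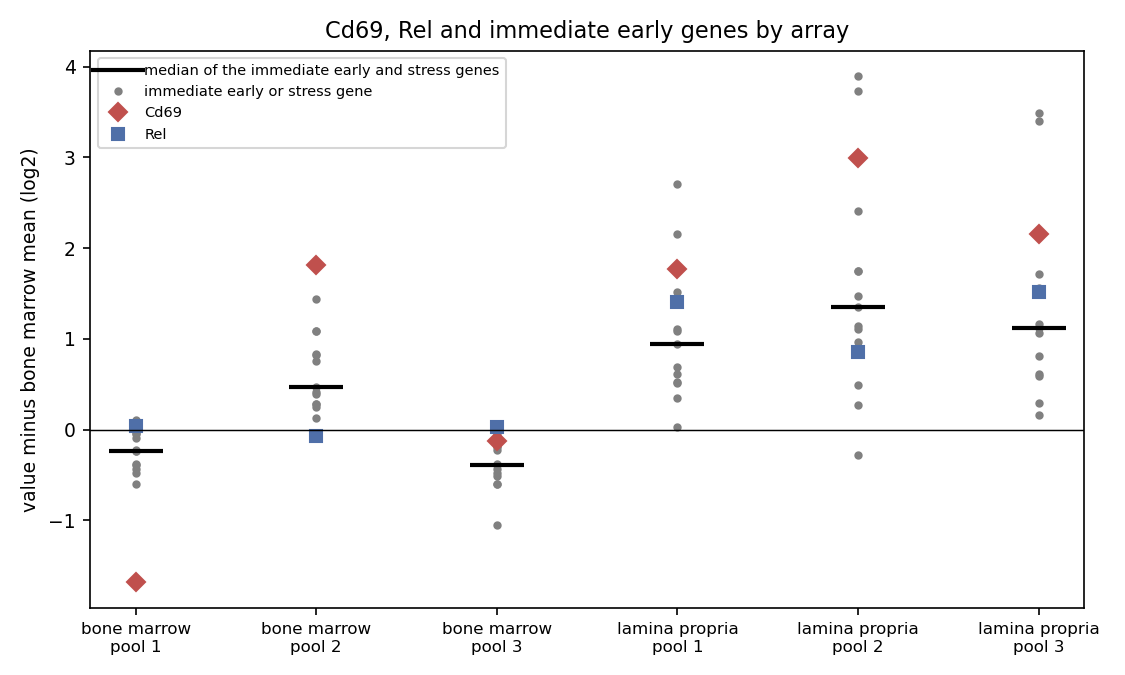
Values less the marrow mean (log2) in the 6 arrays for Cd69 (diamonds), Rel (squares) and the 13 measured immediate early and stress genes (dots, with their median as a bar). Marrow pool 2 is high for Cd69 and for the early genes and not for Rel.

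Immediate early and stress genes answer quickly to stimuli and to the handling of cells, and marrow pool 2 was high for them as it was for Cd69. All 13 measured genes had a positive difference, with a median of 1.13, and 6 were higher without overlap, where 67.6% and 14.8% of all genes were. By limma 0 passed over all genes and 9 were higher at an unadjusted p under 0.05, against 5.53% of all genes. Their median lay 0.94, 1.35 and 1.12 above the marrow mean in lamina propria pools 1, 2 and 3. In marrow pools 1, 2 and 3 it lay at -0.24, 0.46 and -0.39. Jun, a subunit of AP-1, read 8.89, 9.96 and 8.53 in the marrow, and Zfp36, which speeds the decay of cytokine messages, 6.92, 8.76 and 6.27. Rel in marrow pool 2 was 0.11 below pool 1, so it did not follow this order. Fos and Egr1, the other early factors followed, differed by 1.01 and 1.18, and the stress genes Atf3 and Hspa1a by 3.28 and 3.18 (limma adjusted p = 0.155 each). Atf3 and Hspa1a passed limma with array weights (adjusted p = 0.0158 and 0.0166), without lamina propria pool 3 (0.0124 and 0.0198) and with the replicate block (0.0476 each), though shared pool numbers were not taken as pairs. Array weights and the fit without pool 3 both give lamina propria pool 3 little or no weight. Atf3 also passed with an intensity trend and robust variances (limma adjusted p = 0.0362). With at least 2 lamina propria pools kept, the limma adjusted p ran from 0.0124 to 0.408 for Atf3. For Hspa1a it ran from 0.0166 to 0.553. The part of these early and stress genes in the differences of Cd69 and the NF-kB genes was not tested.

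Beyond these genes, 76 of 82 listed genes of the NF-kB pathway were measured. Their median difference was 0.21, close to the 0.22 of all genes, with 49 positive and 27 negative. By limma 0 passed over all genes; 9 were higher and 4 lower at an unadjusted p under 0.05, where the shares over all genes were 5.53% and 8.15%. With array weights 17 were called in either direction (22.4%), against 28.0% of all genes. Without lamina propria pool 3 it was 22 (28.9%), against 36.2%. Both settings give lamina propria pool 3 little or no weight. Without overlap 14 of 76 were higher (18.4%) and 2 lower (2.63%), near the 14.8% and 7.27% of all genes.

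**Figure D4:**
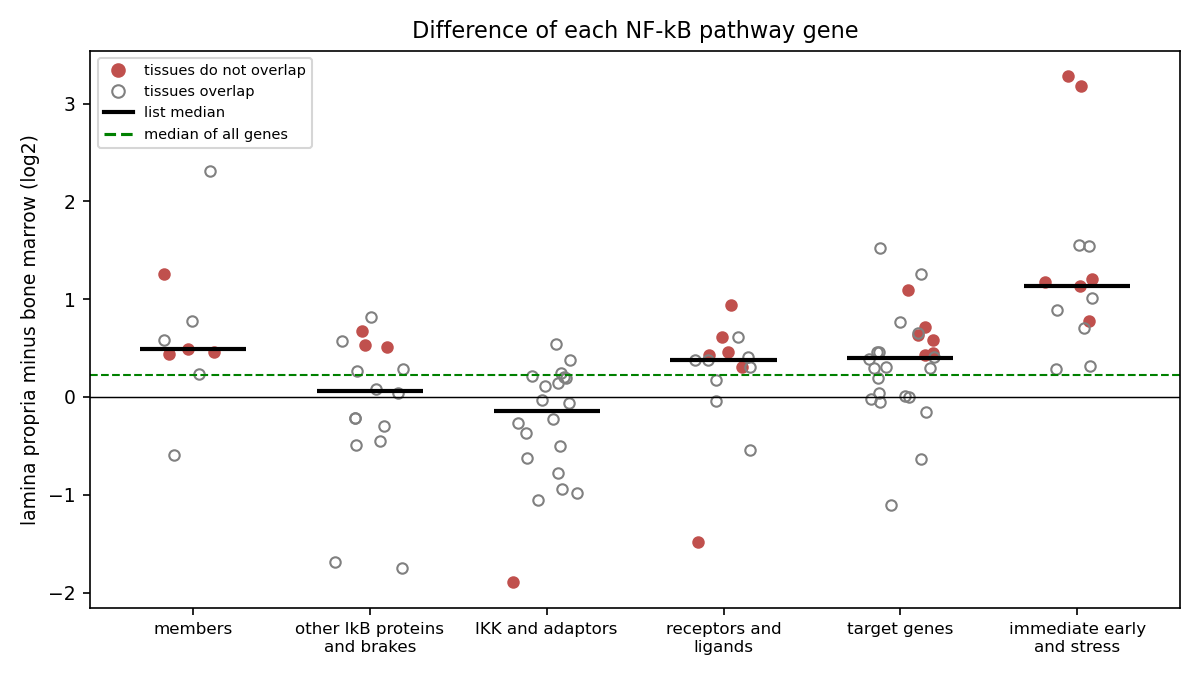
Lamina propria minus bone marrow (log2) for each measured gene, by list, with list medians as bars and the median of all genes (0.22) dashed; filled points are genes whose tissues do not overlap. The medians run from -0.15 for IKK and adaptors to 1.13 for immediate early and stress genes.

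Further IkB proteins and brakes on the pathway had a median difference of 0.06 (9 of 16 positive). Nfkbiz, a nuclear IkB protein induced by microbial signals, read 7.76, 7.53 and 9.12 in the lamina propria and 6.87, 8.20 and 6.91 in the marrow, with pool 3 again the highest of all arrays. Nfkbib, the gene of IkB beta, read 5.82, 6.17 and 7.44 against 5.70, 5.98 and 6.03, and differed by 0.58. Nfkbid, another nuclear IkB protein, and Tnip1, a partner of A20, did not overlap and differed by 0.67 (95% interval -0.03 to 1.38) and 0.53 (95% interval 0.09 to 0.98), with limma adjusted p of 0.356 each. Cyld, a deubiquitinase that restrains NF-kB, read 5.66, 5.87 and 8.26 against 8.10, 8.07 and 8.87. Its low values were those of pools 1 and 2, and pool 3 lay 0.09 below the marrow mean. The ubiquitin ligase Itch and the adaptor Tax1bp1, which work with A20, differed by -1.69 and -0.30, both with overlap. Itch lay at -3.79, -1.07 and -0.21 from the marrow mean in pools 1, 2 and 3, and its difference was -0.64 without pool 1 and -2.43 without pool 3.

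The kinase complex and its adaptors had a median of -0.15, with 8 of 20 positive. By pool the list median lay at -0.44, -0.13 and 0.07 from the marrow mean in lamina propria pools 1, 2 and 3. Chuk was not analysed here. The catalytic subunit Ikbkb differed by -0.23, the scaffold Ikbkg by 0.11 and Map3k14, the kinase of the alternative pathway, by 0.19, each with overlap. Ikbkb was at 0.03 and Ikbkg at -0.08 in pool 3 alone, and Map3k14 at -0.00 after cyclic loess normalization, so the sign of each turned in at least 1 alternative. Bcl10 and Malt1, which link antigen receptors to IKK, differed by 0.38 and -0.78, neither past the test. Bcl10 was at 0.036 without marrow pool 3 and 0.63 without marrow pool 2. Malt1 was at -0.27 without lamina propria pool 1 and -1.14 without pool 3, and pool 3 alone lay at -0.04 from the marrow mean. Prkcb, the protein kinase C of B cell receptor signalling, and the ubiquitin ligase Birc2 differed by -0.50 and -0.37, and a mean over the probe sets of Birc2 gave 0.32. Map3k7, the kinase that activates IKK, was the 1 gene of this list below every marrow pool, at -1.90; it was named after its value was seen.

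Receptors and ligands had a median of 0.38, with 11 of 14 positive and 5 higher without overlap (35.7%), against 67.6% and 14.8% of all genes. Those shares are over genes of all levels, and this list averaged 5.46 to 5.61 in the marrow pools. Its median lay 0.49, 0.39 and 0.12 above the marrow mean in pools 1, 2 and 3. For all genes with a marrow mean of 5 to 6 the medians were 0.44, 0.40 and -0.02. Tnfrsf13c, the BAFF receptor, read 7.57, 7.63 and 7.52 in the lamina propria and 7.18, 7.31 and 7.31 in the marrow, a difference of 0.31 (95% interval -0.12 to 0.74). Tnfsf11, the ligand RANKL, differed by 0.46, the co-stimulatory receptor Cd40 by 0.30 and the cytokine Tnf by 0.61. Ltb, the lymphotoxin subunit, differed by -0.54. Tlr4, the receptor for bacterial lipopolysaccharide, was the 1 gene here below every marrow pool, at -1.48 (limma adjusted p = 0.155), and was named after its value was seen. With an intensity trend and robust variances it was the 1 gene of the 76 that passed.

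Target genes of NF-kB had a median of 0.40, with 21 of 26 positive and 6 higher without overlap (23.1%), against 67.6% and 14.8% of all genes. These shares, too, are over genes of all levels, and the list averaged 5.57 to 5.66 in the marrow pools. By pool the list median lay 0.28, 0.35 and 0.55 above the marrow mean in lamina propria pools 1, 2 and 3. All genes with a marrow mean of 5 to 6 had medians of 0.44, 0.40 and -0.02. Irf1, an interferon regulatory factor, read 8.94, 7.17 and 9.41 in the lamina propria and 6.57, 7.57 and 7.62 in the marrow, and differed by 1.25. Birc3, which restrains cell death and marks signalling proteins with ubiquitin, read 9.76, 7.29 and 9.86 against 8.75, 8.42 and 9.62. In both genes pools 1 and 3 lay above every marrow pool and pool 2 did not, as in Tnfaip3. Icam1 and Cd83, surface proteins of activated cells, differed by 0.65 and 0.63, the latter without overlap. Traf1, an adaptor of TNF receptors, differed by 0.20, and by -0.07 after cyclic loess normalization.

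Markers of other cell types were measured beside these genes. All 11 T cell markers had a positive difference (median 0.43), and their summed level, on the linear scale, was 585 to 662 in the lamina propria and 432 to 531 in the marrow. The T cell receptor chain Cd3e differed by 0.64. All 13 markers of the intestinal epithelium were positive (median 0.46), with summed levels of 688 to 825 and 498 to 541. Epcam, the epithelial adhesion protein, differed by 0.46. Over all genes 67.6% were positive. The T cell and epithelial lists had mean levels of 4.91 to 5.07 in the marrow pools. All genes with a marrow mean of 4 to 5 and of 5 to 6 had median differences of 0.36 and 0.30. In lamina propria pool 3 alone the medians of the T cell and epithelial lists lay 0.28 and 0.30 above the marrow mean. Those of the same bands were 0.01 and -0.02. Of the 12 markers of macrophages and dendritic cells, 7 were positive (median 0.30), with summed levels of 526 to 822 and 538 to 728. Their differences ran from -0.71 to 0.71, with 2 higher and 1 lower without overlap. Of 10 granulocyte markers 4 were positive (median -0.10), with summed levels of 281 to 401 and 337 to 1138, the highest in marrow pool 2. In all 6 arrays 5 T cell, 6 epithelial, 4 macrophage and 4 granulocyte markers lay below the median of all genes. The part of such cells in the differences of the NF-kB genes was not tested.

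The genes whose 6 values, each less its own mean, came closest to those of Rel were Jchain, Il1b and Perp, of 19937 genes compared. Their root mean square differences from Rel over the 6 arrays were 0.17, 0.22 and 0.23. Jchain, the joining chain of secreted IgM and IgA, read 4.79, 3.83 and 4.64 in the lamina propria and 3.24, 2.78 and 3.01 in the marrow. Il1b, an inflammatory cytokine, read 5.76, 5.15 and 6.13 against 4.76, 4.88 and 4.59. Perp, an adhesion protein of the p53 response, differed by 0.88. These 3 genes are dim, with marrow means of 3.01 (Jchain), 4.74 (Il1b) and 4.56 (Perp), against 9.13 for Rel. In lamina propria pools 1 and 2 genes of their marrow levels had medians above the marrow mean. Genes of the level of Rel had medians below it. The closest to Cd69 were H2bc8, a histone gene with near-identical copies, Zfp36 and Dusp1, a phosphatase of the immediate early response, at 0.67, 0.81 and 0.82. Dusp1 read 7.28, 9.18 and 8.48 in the lamina propria and 6.39, 7.59 and 6.34 in the marrow, with lamina propria pool 2 the highest array, as for Cd69.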

How the data were processed

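RNA of 3 lamina propria and 3 bone marrow pools was measured on whole-transcript arrays. Per the labels' protocols, 4.5 to 47 ng of total RNA were amplified and labelled with biotin, with no amount stated for single pools. The values are on the log2 scale as the authors deposited them. RMA and Affymetrix Expression Console 1.3.0.187 are the tools that the submitters' processing notes name.

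Of 35556 probe sets, 21789 had 1 gene symbol in the platform's gene table, 1621 several and 12146 none. None of those with several symbols named any of the 10 chosen genes. The other genes named were not checked for this. The probe set with the highest mean stood for a gene (19938 genes). Tissues were compared with lmFit and eBayes of limma 3.58.1 in R 4.3.3 (two-sided, without a block), with p-values adjusted by Benjamini-Hochberg over all genes, threshold 0.05 and 95% intervals. The p-values of limma set each difference against the spread between pools of a tissue, moderated over all genes. In simulated arrays of this comparison with 19938 genes, 4.48%, 62.7% and 87.9% of genes changed by 1, 2 and 3 were recovered. Each gene was drawn independently there, without the array-wide shift of lamina propria pools 1 and 2. Recovery in the real arrays may therefore differ. Likeness, promoter matches and figures used Python 3.11.15 and matplotlib 3.10.9.

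The genes described and the lists were chosen with earlier results of these data known. Named were all measured genes of the set, in each wider list and the early and stress list the 2 with the highest mean where none passed, a fixed set, and the 3 genes closest to Rel and to Cd69. Ebf1, Blnk, Rag1, Rag2, Cd3e and Epcam were picked from the marker lists. Alternatives tried were quantile and cyclic loess normalization, a block for the pool number, a dim-gene filter, array weights, a variance trend with robust estimation, a mean over probe sets, leaving out each array or lamina propria pools 1 and 2, and single lamina propria pools.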

Additional observations from a re-analysis of the deposited data

How the results depend on the processing

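Counts past the threshold are left out here where a single lamina propria pool remained. In the other alternatives the number of the 9 NF-kB genes past it was 0, except 1 with array weights and 0 to 1 when 1 array was left out. The gene was Rel. Lamina propria pool 3 had the lowest array weight of all arrays, 0.153. Over all genes 0 passed, against 5586 with array weights, 40 with an intensity trend and robust variances, 16 with the replicate block and 0 to 7222 when 1 array was left out, the last without lamina propria pool 3. For the 76 wider genes 17 passed with array weights, 1 with the trend and 0 to 22 with 1 array left out. The cause was not tested. Genes without overlap, 4 of 9 against 22.1% of all genes, were 7 after quantile normalization, against 23.2%. In pool 1 and in pool 2 alone, set against the marrow range, they were 7, where 83.8% and 83.6% of all genes did not overlap. Without pools 1 and 2 they were 8, against 51.5% of all genes. With 1 array left out they were 4 to 7, where the share over all genes ran from 25.7% to 69.9%. The median difference of the 9 genes was 0.85 without pools 1 and 2, and 0.30 to 0.66 with 1 array left out. That of the wider genes was 0.055 with cyclic loess and 0.060 with the dim filter, 0.25 with a mean over probe sets, 0.14 in pool 1 alone and 0.17 to 0.25 with 1 array left out. Shared pool numbers were not taken as pairs, as the labels do not pair the tissues. Same-numbered pools correlated in their deviations from the tissue means at 0.13, 0.05 and 0.23. Differently numbered pools ran from -0.21 to 0.13, the latter for lamina propria pool 2 and marrow pool 1. Deviations from a mean of 3 pools depend on each other, so these values cannot decide whether the pools are paired. With the replicate block none of the 9 passed.

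Signs turned for Rela (0.85), Tax1bp1 (0.22), Birc2 (0.40), Ikbkb (0.0272), Ikbkg (-0.0827) and Traf1 (-0.00551) without pools 1 and 2. They turned for Ikbkg (-0.0270), Map3k14 (-0.00446) and Traf1 (-0.0681) with cyclic loess, and for Birc2 (0.32) with a mean over probe sets. With 1 array left out Nfkbia ran from -0.0346 to 0.95, Birc3 from -0.41 to 0.88, Prkcb from -0.83 to 0.0687, Birc2 from -0.76 to 0.13, Ikbkg from -0.0730 to 0.20 and S1pr1 from -0.0269 to 0.76. Signals have no depth here, and 3 arrays per tissue limit the precision.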
